A study of Mus musculus with 12 samples.

Results

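The endothelial identity genes described here are 10 genes that are read as the signature of blood vessel lining cells, measured in mammospheres of the mouse mammary gland. They were taken as the rows of the deposited normalised expression table named Pecam1, Cdh5, Esam, Cldn5, Emcn, Vwf, Flt1, Kdr, Tek and Tie1, which are 10 of its 23406 genes. Of these 10 genes, 10 had a mean of at least 0.5 CPM (reads relative to library size, scaled by the authors) over the 12 libraries, the limit for testing a gene. In a single library a member was represented by between 102 reads, for Cldn5, and 10377 reads, for Pecam1.

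Endothelial cells line blood and lymph vessels and hold together through adherens and tight junctions. Vascular endothelial growth factors (VEGFs) act on them through the receptor kinases encoded by Flt1 and Kdr, and angiopoietins act through the TEK receptor and its partner TIE1. In the mammary gland, capillaries surround the epithelial ducts within the fat pad. A mammosphere is a floating sphere grown in suspension from dissociated mammary cells, in a culture meant to select cells with stem or progenitor properties.

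Total RNA was sequenced from mammospheres at passage 2, grown from C57BL/6J mice. The groups were 12-month-old KO, 2-month-old KO, 12-month-old WT and 2-month-old WT, with 3 libraries each. KO mice (p66-/-) lack the p66Shc isoform of Shc1, an adaptor protein, and WT mice carry no allele or agent named in the labels. The series title places p66Shc beside p53 and Insc in the ageing of mammary stem cells. The sources used here name 3 mice per age and genotype but do not tie a library to a mouse, so p-values measure the spread between these libraries, which may be technical. In whole spheres, fewer cells of a type and less RNA per cell cannot be told apart.

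Libraries held 31845169 to 109079737 reads in genes and 17108 to 18025 genes with at least 1 read. Correlations between libraries of a group ran from 0.991 to 0.998, and no pair agreed within counting error. Within 2-month WT, replicate 1 stood apart, with a chi-square per degree of freedom of 71.5 against replicate 2 and 47.8 against replicate 3, and 11.1 between the other two. Within 12-month KO, replicate 3, the library with the most reads, gave 37.9 against replicate 1 and 36.5 against replicate 2, and the other two gave 14.98. The other 6 pairs ran from 6.04 to 16.1. Where libraries differ beyond counting error this measure grows with the number of reads, so it does not compare pairs of unlike depth. Shc1 averaged 170 ± 7.60 CPM in 12-month KO, 208 ± 0.329 in 2-month KO, 211 ± 8.44 in 12-month WT and 296 ± 25.3 in 2-month WT (SD, n = 3 each). Its count sums every Shc1 transcript, of which the p66 form is one, so it checks the genotype labels only in part. The 10 endothelial genes summed to 106 to 456 CPM in a library, set against 9311 to 15871 CPM for 10 fibroblast markers, 333 to 3973 CPM for 12 epithelial markers and 312 to 1453 CPM for 12 leukocyte markers. Endothelial, fibroblast, epithelial and leukocyte markers were thus all detected in libraries labelled mammospheres.

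The start regions of 4 members are shown because the pair Emcn and Tie1 followed the pattern most members shared, while Tek and Flt1 departed from it. Each is the 250 bases before the transcription start in RefSeq on GRCm38.p6, read 5′ to 3′ on the gene's strand. They lie at chr3:137340828-137341077 on the plus strand for Emcn, chr4:118489850-118490099 on the minus strand for Tie1, chr4:94739039-94739288 on the plus strand for Tek and chr5:147726012-147726261 on the minus strand for Flt1. Capitals mark GGAA or its reverse complement TTCC, the core that ETS-family factors bind.
Emcn: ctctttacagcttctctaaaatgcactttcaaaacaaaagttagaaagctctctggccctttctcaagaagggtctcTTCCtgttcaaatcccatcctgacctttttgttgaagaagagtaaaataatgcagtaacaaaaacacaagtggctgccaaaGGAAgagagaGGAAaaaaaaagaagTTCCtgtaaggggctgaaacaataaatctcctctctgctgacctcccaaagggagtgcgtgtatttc
Tie1: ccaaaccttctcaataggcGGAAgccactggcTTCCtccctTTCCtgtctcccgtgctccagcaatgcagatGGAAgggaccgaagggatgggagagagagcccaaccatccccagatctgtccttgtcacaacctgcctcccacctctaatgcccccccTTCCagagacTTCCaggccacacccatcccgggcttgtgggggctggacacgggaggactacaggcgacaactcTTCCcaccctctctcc
Tek: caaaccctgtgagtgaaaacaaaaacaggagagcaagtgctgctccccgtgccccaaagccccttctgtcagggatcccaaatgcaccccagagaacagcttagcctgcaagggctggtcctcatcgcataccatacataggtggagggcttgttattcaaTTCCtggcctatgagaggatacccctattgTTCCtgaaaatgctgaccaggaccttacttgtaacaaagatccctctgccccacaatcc
Flt1: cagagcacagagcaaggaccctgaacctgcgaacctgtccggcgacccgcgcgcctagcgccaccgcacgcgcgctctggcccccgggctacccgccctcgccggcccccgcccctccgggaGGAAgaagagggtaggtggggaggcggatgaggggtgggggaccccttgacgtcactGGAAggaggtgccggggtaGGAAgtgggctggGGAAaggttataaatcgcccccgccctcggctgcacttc
The searched motifs were chosen with the expression values known, and a match is only a match of letters. Emcn held 4 such cores, Tie1 held 7, Tek held 2 and Flt1 held 4, where the median of 32851 promoter windows was 3 with quartiles of 2 and 4. GGAA on either strand occurred in 93.4% of those windows. Among the 6 members with a start region in the reference table, Kdr held 4 cores and Cldn5 none. The longer ACAGGAA, on either strand, overlaps GGAA and was present in Emcn and Tie1 and in 7.2% of all windows. CpG pairs numbered 1 in Emcn, 6 in Tie1, 2 in Tek, 23 in Flt1, 16 in Kdr and 12 in Cldn5. The median of all windows was 6, with quartiles of 2 and 16. TATAAA was found in Flt1 alone of the 6, and in 12.4% of all windows. GGGCGG, on either strand, was found in Kdr, Flt1 and Cldn5, and in 32.7% of all windows.

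A first pair of comparisons asks how the genes change with age within a genotype, and a second asks how KO differs from WT at each age. The interaction asks whether the age change differs between the genotypes. Fold changes are log2 differences of log2(CPM + 0.5) from limma with their SE, p-values are adjusted by the Benjamini-Hochberg method over 13961 genes, and a change was called at an adjusted p under 0.05. These libraries differed at many genes, so each count of members stands beside the share of all tested genes called the same way.

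The endothelial genes were highest in 12-month KO spheres. Every 12-month KO library lay above the other 9 libraries for 10 of 10 members, a pattern held by 18.2% of all tested genes. Every 2-month KO library lay below the other 9 for 8 of 10 members, all but Flt1 and Tek, and for 8.97% of tested genes. Both held for 8 of 10 members and for 3.32% of tested genes. The summed level of the 10 genes was 410 to 456 CPM in 12-month KO, 106 to 109 CPM in 2-month KO, 176 to 185 CPM in 12-month WT and 152 to 172 CPM in 2-month WT.

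**Figure D1:**
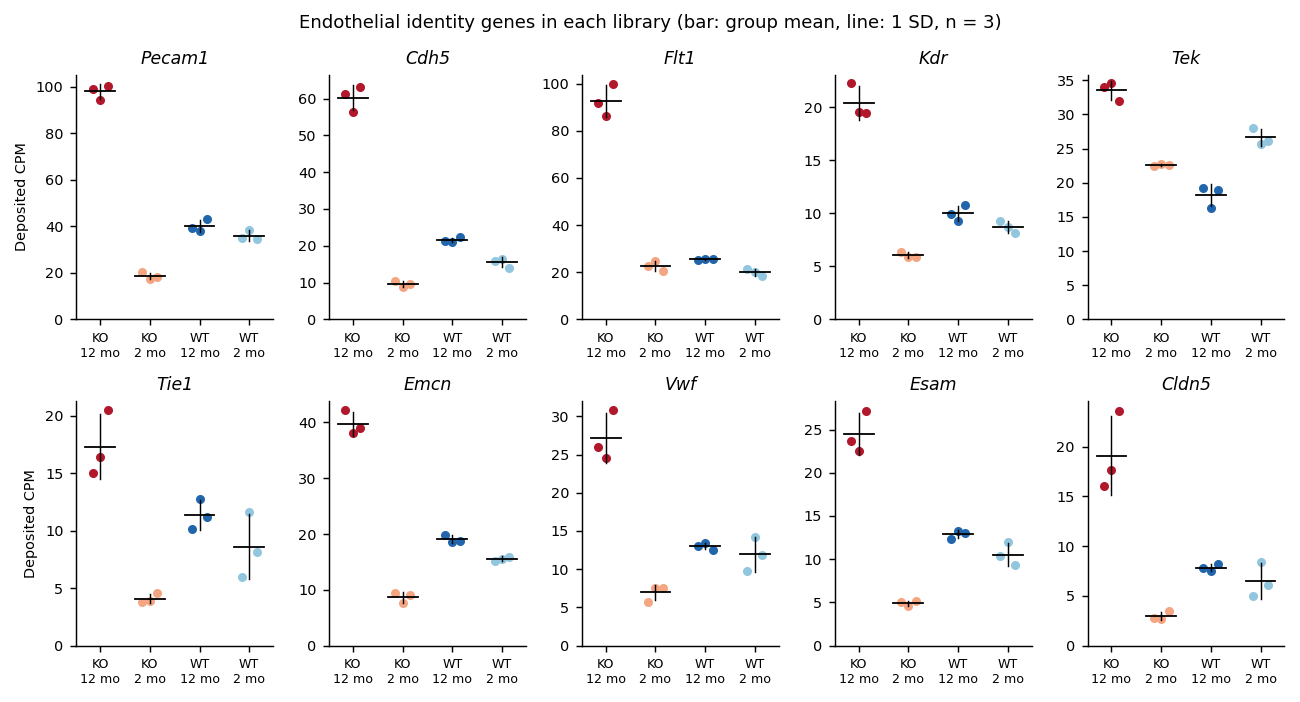
Deposited CPM of each of the 10 endothelial identity genes (vertical axis, starting at 0) in 12-month KO, 2-month KO, 12-month WT and 2-month WT mammospheres. Points are libraries, horizontal bars group means and vertical lines 1 SD (n = 3); the 12-month KO points lie above all others in 10 of 10 panels, and the 2-month KO points lie below all others in 8.

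Among the junction genes, Pecam1 encodes CD31, an adhesion receptor at contacts between endothelial cells that platelets and leukocytes also carry. The gene spans chr11:106654217-106715281 on the minus strand of mm10. It had 99.3, 94.5 and 100.4 CPM in 12-month KO, 20.3, 17.6 and 18.3 in 2-month KO, 39.3, 38.2 and 43.2 in 12-month WT, and 34.97, 38.7 and 34.4 in 2-month WT. The KO groups took the highest and the lowest place, with the WT groups between them and overlapping each other. Pecam1 rose with age in KO by 2.36 ± 0.07 on the log2 scale (SE, adjusted p = 2.14e-11 in limma), a 5.24-fold difference of means. In WT the age difference was 0.16 ± 0.07 (adjusted p = 0.0755 in limma) and was not called.

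Cdh5, on chr8:104101624-104144502 (plus strand), encodes VE-cadherin, the cadherin of endothelial adherens junctions. Its levels were 61.3, 56.4 and 63.2 CPM in 12-month KO, 10.3, 8.87 and 9.59 in 2-month KO, 21.2, 21.1 and 22.3 in 12-month WT, and 16.0, 16.5 and 13.9 in 2-month WT. No pair of groups overlapped. Cdh5 rose with age in KO by 2.59 ± 0.08 (adjusted p = 2.62e-11) and in WT by 0.47 ± 0.08 (adjusted p = 2.14e-04; limma). Its KO change was the highest of the 10 in limma and second to that of Cldn5 in edgeR (2.66 against 2.70) and DESeq2 (2.69 against 2.72), and in limma without replicate 1 of 12-month KO (2.58 against 2.60).

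Esam, on chr9:37528088-37538319 (plus strand), encodes an immunoglobulin-type adhesion molecule of endothelial tight junctions that platelets also carry. It had 23.7, 22.6 and 27.2 CPM in 12-month KO, 5.002, 4.58 and 5.17 in 2-month KO, 12.4, 13.3 and 13.1 in 12-month WT, and 10.3, 11.9 and 9.30 in 2-month WT. The 4 groups did not overlap, and the 2 WT groups were the nearest neighbours. Esam rose with age in KO by 2.20 ± 0.10 (adjusted p = 6.18e-10) and in WT by 0.29 ± 0.10 (adjusted p = 0.0221; limma). Among fits that left out 1 library, the WT rise was not called without replicate 3 at 2 months (adjusted p = 0.109) and without replicates 2 and 3 at 12 months (0.0682 and 0.0569).

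Cldn5, on chr16:18776846-18778262 (plus strand), encodes a claudin that forms tight junction strands and is best known from the vessels of the brain. Its values were 16.1, 17.6 and 23.6 CPM in 12-month KO, 2.76, 2.70 and 3.45 in 2-month KO, 7.83, 7.53 and 8.19 in 12-month WT, and 4.95, 8.45 and 6.06 in 2-month WT. The 2-month WT libraries spread across the whole 12-month WT range, and KO was at both extremes. The difference of means with age in KO was 6.44-fold, the largest of the 10 members, with a log2 change of 2.49 ± 0.17 (adjusted p = 3.45e-08; limma). In WT the age difference of 0.29 ± 0.17 was not called (adjusted p = 0.17), and it reached 0.48 (adjusted p = 0.0174) without replicate 2 of 2-month WT.

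Emcn, on chr3:137341077-137431069 (plus strand), encodes endomucin, a sialomucin on the surface of capillary and venous endothelium. It had 42.1, 38.1 and 39.1 CPM in 12-month KO, 9.46, 7.58 and 9.03 in 2-month KO, 19.9, 18.5 and 18.8 in 12-month WT, and 15.1, 15.6 and 16.0 in 2-month WT. Replicates lay close together and no pair of groups overlapped. Emcn rose with age in KO by 2.14 ± 0.08 (adjusted p = 1.54e-10) and in WT by 0.28 ± 0.08 (adjusted p = 0.00876; limma).

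Vwf, on chr6:125552947-125686679 (plus strand), encodes von Willebrand factor, which endothelial cells and megakaryocytes store and release to tether platelets. Its levels were 26.0, 24.5 and 30.8 CPM in 12-month KO, 5.76, 7.58 and 7.53 in 2-month KO, 13.1, 13.5 and 12.6 in 12-month WT, and 9.76, 14.3 and 11.8 in 2-month WT. The WT groups overlapped, and the KO groups lay on either side of them. Vwf rose with age in KO by 1.89 ± 0.13 (adjusted p = 4.89e-08; limma), and its WT age difference of 0.14 ± 0.13 was not called (adjusted p = 0.41).

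Among the VEGF receptors, Kdr, on chr5:75933269-75978428 (minus strand), encodes VEGFR2, the receptor that carries most VEGF signalling in endothelium. It had 22.3, 19.5 and 19.4 CPM in 12-month KO, 6.35, 5.90 and 5.86 in 2-month KO, 9.93, 9.28 and 10.8 in 12-month WT, and 9.25, 8.72 and 8.14 in 2-month WT. The WT groups touched without overlapping, and 2-month KO lay lowest. Kdr rose with age in KO by 1.67 ± 0.09 (adjusted p = 2.13e-09; limma), and its WT age difference of 0.19 ± 0.09 was not called (adjusted p = 0.0761).

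Flt1, on chr5:147562195-147725988 (minus strand), encodes VEGFR1, a high-affinity VEGF receptor with a weak kinase that is also made as a secreted decoy. Its gene count does not separate the membrane and secreted forms. It had 91.8, 86.2 and 99.8 CPM in 12-month KO, 22.6, 24.9 and 20.3 in 2-month KO, 25.1, 25.6 and 25.6 in 12-month WT, and 21.4, 20.2 and 18.5 in 2-month WT. The 12-month KO libraries were high, and the libraries of the other 3 groups lay between 18.5 and 25.6 CPM, with 2-month KO overlapping 2-month WT. Flt1 rose with age in KO by 2.01 ± 0.08 (adjusted p = 2.57e-10) and in WT by 0.34 ± 0.08 (adjusted p = 0.00284; limma).

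Of the angiopoietin receptor pair, Tie1, on chr4:118471190-118489849 (minus strand), encodes a receptor with no ligand of its own firmly assigned, which pairs with TEK. Its levels were 15.04, 16.4 and 20.5 CPM in 12-month KO, 3.81, 3.93 and 4.55 in 2-month KO, 10.1, 12.8 and 11.2 in 12-month WT, and 6.01, 11.6 and 8.16 in 2-month WT. Replicate spread was wide, and the WT groups overlapped. Tie1 rose with age in KO by 1.94 ± 0.18 (adjusted p = 8.01e-07; limma), and its WT age difference of 0.42 ± 0.18 was not called (adjusted p = 0.0662).

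Tek, on chr4:94739299-94874939 (plus strand), encodes TIE2, the receptor for angiopoietins. It had 34.0, 34.6 and 32.0 CPM in 12-month KO, 22.4, 22.7 and 22.6 in 2-month KO, 19.2, 16.4 and 18.9 in 12-month WT, and 28.0, 25.7 and 26.1 in 2-month WT. The order of the groups was its own, with 12-month WT lowest and 2-month WT second, and no pair of groups overlapped. Tek rose with age in KO by 0.56 ± 0.07 (adjusted p = 1.14e-05), a 1.49-fold difference of means and the smallest of the 10. It fell with age in WT, with a log2 change of -0.54 ± 0.07 (adjusted p = 1.84e-05; limma), which no other member did.

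Counted together, 10 of 10 members rose with age in KO, where 32.9% of all tested genes rose and 34.2% fell, and for 10 of 10 the age groups did not overlap, as for 35.3% of genes in that direction. Their median log2 change was 2.07, and the median of all tested genes was -0.02. With age in WT, 4 of 10 members rose (Cdh5, Flt1, Emcn and Esam) and 1 fell (Tek), where 22.3% of all genes rose and 35.6% fell. The WT age groups did not overlap for 5 members that lay higher at 12 months (24.2% of all genes) and for Tek, which lay lower (38% of all genes). The members' median in WT was 0.29, and that of all genes was -0.08. With library sizes rescaled by TMM over the 12 libraries together, Pecam1, Kdr and Tie1 also rose in WT (adjusted p = 0.019, 0.0275 and 0.0388), making 7. Without replicate 1 of 2-month WT, 5 members rose and 1 fell in WT, and without replicate 3 of 12-month KO, 10 of 10 still rose with age in KO. Over all genes the split of 3120 higher and 4971 lower in WT became 3586 and 4146 with that rescaling.

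**Figure D2:**
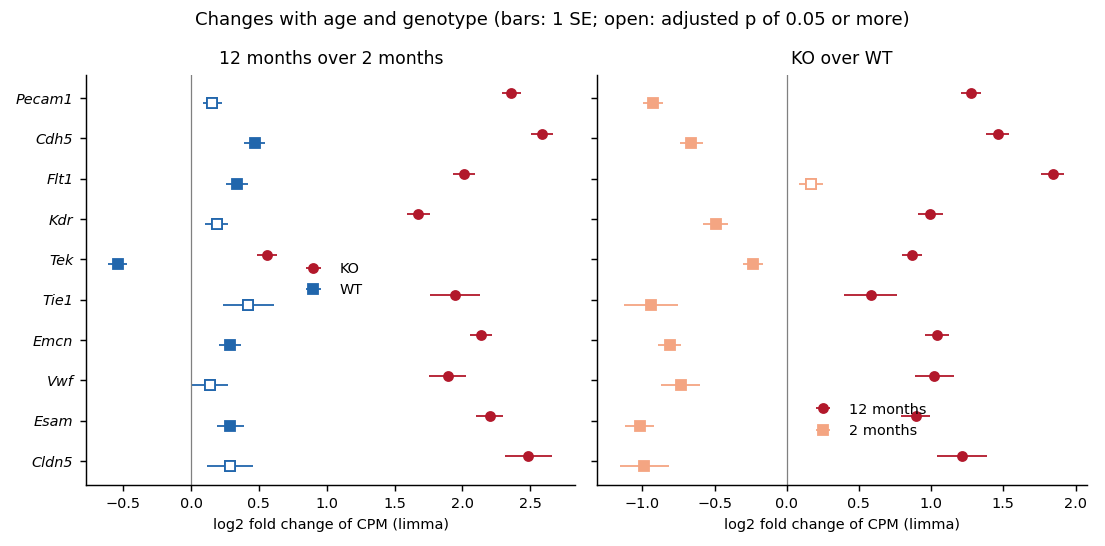
Log2 fold changes of CPM for the 10 endothelial identity genes, with age (left: KO circles, WT squares) and with genotype (right: 12 months circles, 2 months squares). Bars are 1 SE from limma and open symbols have an adjusted p of 0.05 or more; KO age changes run from 0.56 for Tek to 2.59 for Cdh5, and genotype differences are above 0 at 12 months for 10 of 10 genes and below 0 at 2 months for all but Flt1.

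For all members but Flt1 the genotype difference was positive at 12 months and negative at 2 months, and for Flt1 it was above 0 at both ages. At 12 months, 10 of 10 members were higher in KO than in WT, where 31.3% of all tested genes were higher and 38.9% lower. Flt1 had the largest difference, by 1.84 ± 0.08 (adjusted p = 3.58e-10), a 3.64-fold difference of means, followed by Cdh5 (1.46), Pecam1 (1.28), Cldn5 (1.21), Emcn (1.04) and Vwf (1.02). Kdr (0.99), Esam (0.89) and Tek (0.87) came next. Tie1 had the smallest, 0.58 ± 0.18 (adjusted p = 0.0129; limma), which was not called when 12-month KO lacked replicate 3 (0.46, adjusted p = 0.0558) or when 12-month WT lacked replicate 1 (0.50, adjusted p = 0.0527). Without replicate 3 of 12-month KO, 9 of 10 members were higher in KO. The members' median was 1.03 and that of all genes -0.07.

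At 2 months, 9 of 10 members were lower in KO than in WT, where 14.2% of all tested genes were lower and 1.86% higher. The largest differences were those of Esam (-1.02 ± 0.10, adjusted p = 2.24e-05; limma), Cldn5 (-0.99), Tie1 (-0.94) and Pecam1 (-0.93). Emcn (-0.81), Vwf (-0.73), Cdh5 (-0.66) and Kdr (-0.49) were also lower. Tek was lower by a small margin (-0.23 ± 0.07, adjusted p = 0.0391; limma), which was not called in 11 of the alternative settings. Flt1 did not pass the test, with a log2 difference of 0.17 ± 0.08 (adjusted p = 0.194), and was called higher in KO by DESeq2 (0.27, adjusted p = 0.0368). Without replicate 1 of 2-month WT, 8 of 10 members were lower in KO and none higher. The members' median was -0.77 and that of all genes -0.09. Over all genes the calls at 2 months split into 259 higher and 1986 lower, and into 426 and 1032 with TMM over the 12 libraries, where 8 of 10 members were lower.

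The interaction, which sets the KO age change against the WT one as a difference, was positive and called for 10 of 10 members, where 31.4% of all tested genes were called positive. It ran from 1.10 ± 0.10 for Tek (adjusted p = 6.95e-07) to 2.20 ± 0.10 for Pecam1 (adjusted p = 1.52e-09; limma). Tek, which fell in WT and rose in KO, therefore differed between genotypes in the same direction as the others. The members' median was 1.80, and the median of all genes was 0.02.

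Levels can be compared between members only per length, here as CPM per kilobase of the longest annotated transcript. In 12-month KO, Pecam1 led with 28.5 ± 0.901 CPM per kb (SD, n = 3), followed by Cdh5 with 15.1 ± 0.879. Cldn5 (13.5 ± 2.78), Flt1 (13.4 ± 0.994), Esam (13.1 ± 1.30) and Emcn (11.3 ± 0.601) lay within the spread of Cldn5 of one another. Tek (7.21), Tie1 (4.09), Kdr (3.44) and Vwf (3.07) were lowest. In 2-month KO the order differed, with Pecam1 at 5.44 ± 0.409 and Tek second at 4.85 ± 0.0326 CPM per kb. Pecam1 also led in 12-month WT, at 11.7 ± 0.769, and in 2-month WT, at 10.5 ± 0.670.

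Ratios within a library do not depend on its scaling, and 4 were formed with the values known. The ratio of Flt1 to Kdr averaged 4.56 ± 0.522 in 12-month KO, 3.75 ± 0.411 in 2-month KO, 2.55 ± 0.189 in 12-month WT and 2.30 ± 0.0226 in 2-month WT (SD, n = 3 each). It was higher in KO than in WT at both ages without overlap, and the KO age groups overlapped. The ratio of Tek to Tie1 was 1.98 ± 0.368 in 12-month KO, 5.54 ± 0.501 in 2-month KO, 1.63 ± 0.315 in 12-month WT and 3.36 ± 1.23 in 2-month WT. Against Tie1, Tek was lower at 12 than at 2 months in both genotypes. The ratio of Cdh5 to Pecam1 moved less, with 0.614 ± 0.0168 in 12-month KO, 0.513 ± 0.00968 in 2-month KO, 0.537 ± 0.0185 in 12-month WT and 0.430 ± 0.0258 in 2-month WT. Tek to Pecam1 ran at 0.342 ± 0.0237 in 12-month KO, 1.21 ± 0.0965 in 2-month KO, 0.452 ± 0.0327 in 12-month WT and 0.742 ± 0.0695 in 2-month WT. In a two-sided exact permutation test of the log2 ratio, 14 of 16 comparisons gave p = 0.1, the smallest that 3 against 3 libraries allow (0.114 adjusted over the 16). The other two were Flt1 to Kdr with age in KO (exact p = 0.2, adjusted 0.213) and Tek to Tie1 by genotype at 12 months (exact p = 0.3, adjusted 0.3).

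**Figure D3:**
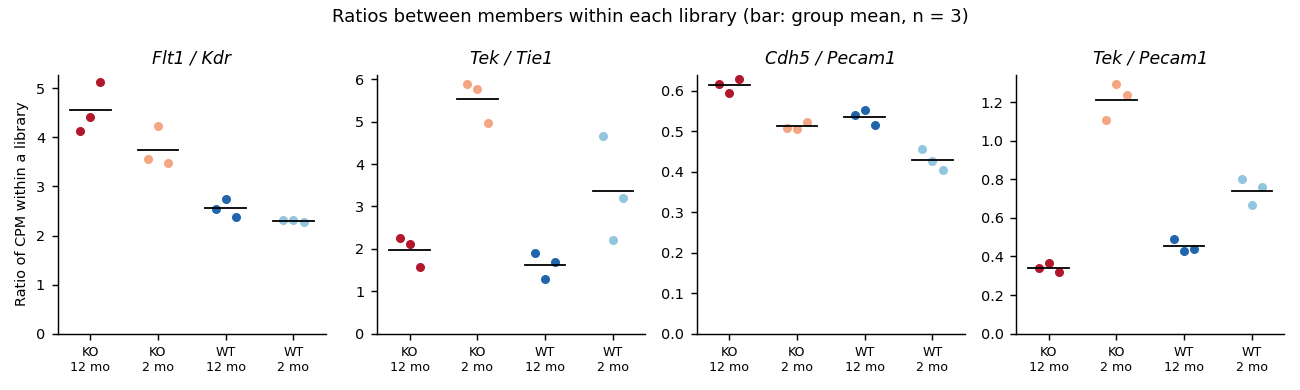
Ratios of CPM between pairs of endothelial identity genes within each library (vertical axes start at 0), in 12-month KO, 2-month KO, 12-month WT and 2-month WT. Points are libraries and bars group means (n = 3); Flt1 to Kdr is highest in the KO groups, and Tek to Tie1 and Tek to Pecam1 are highest in 2-month KO.

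Across the 12 libraries the members moved together, apart from Tek. Correlations of log2(CPM + 0.5) over the 45 pairs of members ran from 0.348 (Tek with Tie1) to 0.993 (Pecam1 with Emcn, and Cdh5 with Kdr), with a median of 0.949. Without Tek, the 36 remaining pairs ran from 0.701 to 0.993, with a median of 0.963. The median correlation of a member with the others was 0.580 for Tek, 0.848 for Flt1 and 0.923 for Tie1, and at least 0.949 for the other 7. These are descriptions over libraries that share 4 groups and their scaling, so the points are not independent.

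The genes outside the fixed lists whose levels followed a member most closely differed between members. Ly6a, which encodes the surface antigen Sca-1, was the closest to Pecam1 (r = 0.992), Emcn (0.994) and Esam (0.991) over the 12 libraries. It averaged 271 CPM in 12-month KO, 16.6 in 2-month KO, 74.2 in 12-month WT and 51.1 in 2-month WT. Svep1, which encodes a large extracellular matrix protein, was the closest to Flt1 (0.997), with 325 CPM in 12-month KO, 31.4 in 2-month KO, 34.7 in 12-month WT and 27.4 in 2-month WT. Closest to Tek was Kif3b, a kinesin motor subunit (0.986), with 139 CPM in 12-month KO, 119 in 2-month KO, 106 in 12-month WT and 128 in 2-month WT. For Cdh5 it was Slc44a2 (0.994), for Kdr Prelp (0.993), for Tie1 Agap1 (0.986), for Vwf Tmem252 (0.988) and for Cldn5 Tapbp (0.990). Between 30 genes, for Tie1, and 308 genes, for Flt1, of 13046 had a correlation above 0.95, so the named genes were not the only close matches.

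Replicates of a group did not spread alike for all members. Relative to the mean, the widest spread was that of Tie1 in 2-month WT, with an SD of 2.84 CPM on a mean of 8.60, followed by Cldn5 there, with an SD of 1.79 on a mean of 6.49. In CPM, the highest SD was that of Flt1 in 12-month KO, 6.86 on a mean of 92.6. In 2-month WT, Tie1, Cldn5 and Vwf were all highest in replicate 2 and lowest in replicate 1. In 12-month KO, 7 of 10 members were highest in replicate 3, namely Pecam1, Cdh5, Flt1, Tie1, Cldn5, Vwf and Esam. The GC content of the longest transcript was 60.5% for Cldn5, 57.6% for Tie1, 56.5% for Vwf and 53.7% for Esam, the top 4 of the 10, and 40.7% for Emcn, the lowest. Across the 10 members, deviation from the group mean correlated with GC content at 0.854 in replicate 2 and -0.696 in replicate 1 of 2-month WT, and at 0.877 in replicate 3 and -0.836 in replicate 1 of 12-month KO. In the other 8 libraries this correlation ran from -0.676 to 0.559, with 0.215 in replicate 2 of 2-month KO, -0.107 in replicate 3 of 12-month WT and -0.258 in replicate 3 of 2-month WT. The deviations of the 3 replicates of a group sum to 0 for each gene, so opposite signs within a group are partly built in. The part of GC content in this spread was not tested.

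**Figure D4:**
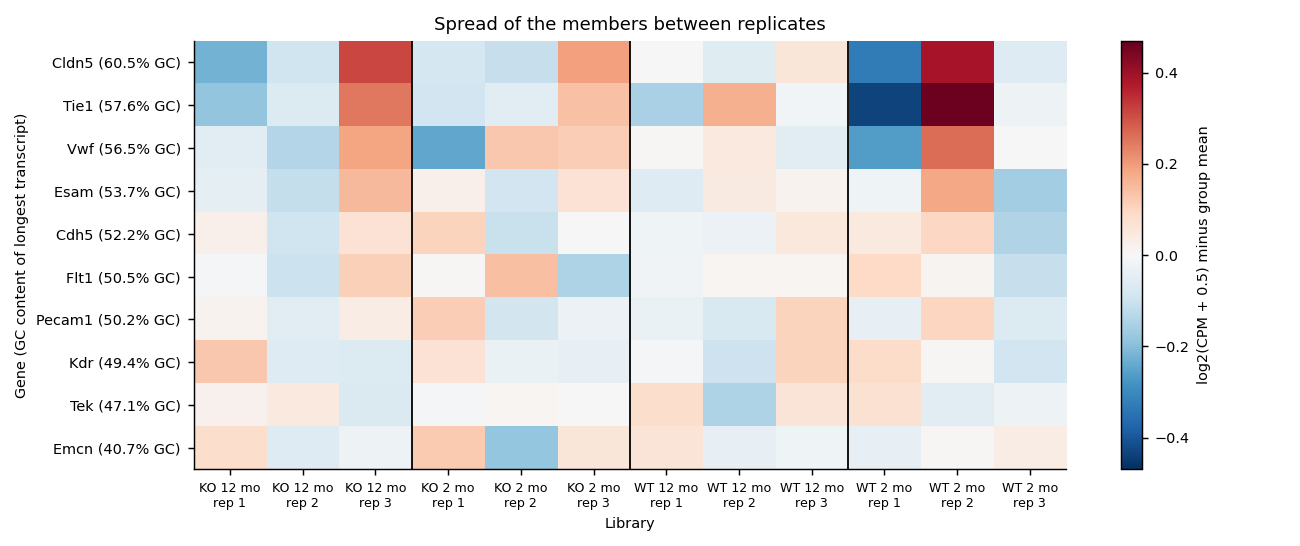
Deviation of each library from its group mean, in log2(CPM + 0.5), for the 10 endothelial identity genes ordered by the GC content of their longest transcript. Columns are the 12 libraries in 4 groups of 3; deviations in 2-month WT run from -0.437 in replicate 1 to 0.461 in replicate 2, both for Tie1.

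Ligands and co-receptors of the same pathways did not share 1 direction. Of 11 such genes, 7 rose and 4 fell with age in KO, 4 rose and 3 fell with age in WT, 5 were higher and 2 lower in KO at 12 months, and 3 were higher and 3 lower in KO at 2 months. Of all tested genes, 32.9% rose and 34.2% fell with age in KO, and 22.3% and 35.6% in WT. By genotype, 31.3% were higher and 38.9% lower in KO at 12 months, and 1.86% and 14.2% at 2 months. The median log2 change of the 11 genes with age in KO was 0.42. Vegfa, the main ligand of KDR, had 134 ± 13.3 CPM in 12-month KO, 99.5 ± 5.73 in 2-month KO, 137 ± 3.30 in 12-month WT and 121 ± 10.2 in 2-month WT, and rose with age in KO by 0.42. Pgf, whose product binds FLT1 but not KDR, rose with age in KO by 1.16 and in WT by 0.71. Figf, which encodes VEGF-D, had 35.2 ± 3.00 CPM in 12-month KO, 10.9 ± 0.575 in 2-month KO, 5.95 ± 0.668 in 12-month WT and 10.1 ± 0.0450 in 2-month WT. It rose with age in KO by 1.64, fell in WT (-0.72), and was 2.47 higher in KO at 12 months on the log2 scale.

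Nrp2, a VEGF co-receptor, had 350 ± 16.7 CPM in 12-month KO, 159 ± 8.0 in 2-month KO, 196 ± 1.76 in 12-month WT and 203 ± 4.43 in 2-month WT, the same order of KO groups as most members. Nrp1 fell with age in both genotypes (-0.30 in KO and -0.60 in WT). Flt4, which encodes the VEGFR3 receptor of lymphatic endothelium, rose with age in KO by 1.50 and in WT by 1.87, and was lower in KO at 12 months (-0.70). The angiopoietin gene Angpt2, whose product can block TEK, fell with age in KO (-0.65) and in WT (-0.67), and was higher in KO at 12 months (0.60) and at 2 months (0.59). Angpt4 went the other way by genotype at 12 months, lying lower in KO (-1.21), and was not called at 2 months (0.07). It fell with age in KO (-0.61) and rose in WT (0.66).

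Of 25 other pan-endothelial genes 23 were tested (Bmx and Aplnr were below the limit), of which 21 rose and 1 fell with age in KO, with a median of 1.36, where 32.9% of all tested genes rose and 34.2% fell. At 12 months 19 were higher in KO (31.3% of all genes) and 1 was lower, while Plvap (-0.15), Egfl7 (0.27) and Shank3 (0.01) were not called. Without replicate 3 of 12-month KO, 19 rose with age in KO and 18 were higher at 12 months. At 2 months 16 were lower in KO (14.2% of all genes) and none higher, and 12 were lower with TMM over the 12 libraries and 11 with edgeR. With age in WT 5 rose and 4 fell, where 22.3% of all genes rose and 35.6% fell; 9 rose with edgeR, 8 with DESeq2, and 8 without replicate 1 of 2-month WT. Ptprb, which encodes the phosphatase VE-PTP that acts on TEK and VE-cadherin, had 20.7 ± 2.59 CPM in 12-month KO, 3.60 ± 0.237 in 2-month KO, 8.96 ± 0.0978 in 12-month WT and 7.47 ± 1.41 in 2-month WT. It rose with age in KO by 2.36 (adjusted p = 1.88e-09; limma), and She (2.28), the nitric oxide synthase gene Nos3 (2.10) and Robo4 (2.00) rose as well.

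The 4 genes of that list that fell with age in WT were Calcrl, Clec14a, Cd34 and Ramp2. Calcrl, an adrenomedullin and CGRP receptor gene, had 1211 ± 44.7 CPM in 12-month KO, 1032 ± 33.5 in 2-month KO, 406 ± 70.4 in 12-month WT and 1231 ± 79.1 in 2-month WT. Cd34, a sialomucin also found on progenitors and stromal cells, had 164 ± 15.3 CPM in 12-month KO, 209 ± 19.2 in 2-month KO, 141 ± 1.55 in 12-month WT and 330 ± 20.02 in 2-month WT. With age in WT, Calcrl (-1.61), Clec14a (-1.26), Cd34 (-1.22) and Ramp2 (-0.46), whose product is a partner of the CALCRL receptor, fell, and Cd34 also fell with age in KO (-0.35). Podxl, which epithelial cells express too, rose with age in both genotypes (1.09 in KO, 1.62 in WT) and was the 1 gene of the list lower in KO at 12 months (-0.80).

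Of 18 endothelial transcription factor genes 16 were tested. With age in KO 9 rose and 1 fell (32.9% and 34.2% of all genes), with a median of 0.53. At 12 months 11 were higher and 1 lower in KO (31.3% and 38.9% of all genes). At 2 months 1 was higher and 7 lower (1.86% and 14.2% of all genes), with 4 lower under TMM over the 12 libraries. Erg, an ETS factor of endothelium, had 4.68 ± 0.742 CPM in 12-month KO, 1.10 ± 0.0150 in 2-month KO, 2.60 ± 0.123 in 12-month WT and 2.19 ± 0.251 in 2-month WT. It rose with age in KO by 1.69, and was 0.73 higher in KO at 12 months and lower in KO at 2 months (-0.75). Other ETS genes of the list differed, as Fli1 (-0.03) and Ets1 (0.01) were not called with age in KO and Ets2 rose (1.49). At 12 months Fli1 (0.40) and Ets2 (0.25) were higher in KO and Ets1 was lower (-0.31). At 2 months Ets1 was higher in KO (0.35), Ets2 was lower (-0.26) and Fli1 was not called (-0.14). Klf2, a flow-responsive factor that other cells also express, had 17.9 ± 1.35 CPM in 12-month KO, 1.36 ± 0.231 in 2-month KO, 1.15 ± 0.0731 in 12-month WT and 0.980 ± 0.0951 in 2-month WT. Klf4 had 98.4 ± 4.01 CPM in 12-month KO, 10.2 ± 0.783 in 2-month KO, 21.2 ± 1.39 in 12-month WT and 12.4 ± 0.968 in 2-month WT. With age in WT 4 of the 16 rose and 5 fell (22.3% and 35.6% of all genes), with a median of 0.02. Mef2c (-1.38) and Lmo2 (-1.09) fell there, as Tek did, while Ets2 (0.98) and Klf4 (0.76) rose.

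Arterial and Notch genes gave no common direction with age in KO, with a median of 0.15. Of 13, 6 rose and 5 fell, where 32.9% of all tested genes rose and 34.2% fell. At 12 months 3 were higher and 6 lower in KO (31.3% and 38.9% of all genes), with a median of -0.22. Dll4, the Notch ligand of arterial and tip endothelium, rose with age in KO by 1.86 and was 0.95 higher in KO at 12 months. Hey1, a Notch target also active in other cells, had 3.95 ± 0.156 CPM in 12-month KO, 3.62 ± 0.461 in 2-month KO, 23.9 ± 1.70 in 12-month WT and 3.57 ± 0.60 in 2-month WT, the reverse of the members at 12 months. Of the 7 lymphatic genes 4 were tested, with 3 higher and 1 lower with age in KO (32.9% and 34.2% of all genes). The podoplanin gene Pdpn, also a fibroblast gene, led them with 1682 ± 64.7 CPM in 12-month KO, 653 ± 17.4 in 2-month KO, 625 ± 28.2 in 12-month WT and 786 ± 41.9 in 2-month WT. Lyve1, a hyaluronan receptor gene of lymphatic endothelium and some macrophages, fell with age in both genotypes (-0.67 in KO, -0.36 in WT), and Ccl21a had no read in any library. Prox1 was below the limit for testing, averaging 0.784 CPM in 12-month KO, 0.292 in 2-month KO, 0.342 in 12-month WT and 0.498 in 2-month WT. Among 6 adhesion genes of activated endothelium, 4 were tested and 3 rose with age in KO (32.9% of all genes). The E-selectin gene Sele was not called with age in KO (-0.12) and fell in WT (-0.87). Selp, which encodes P-selectin, had 2.74 ± 0.378 CPM in 12-month KO, 0.155 ± 0.0228 in 2-month KO, 0.634 ± 0.101 in 12-month WT and 0.706 ± 0.217 in 2-month WT.

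**Figure D5:**
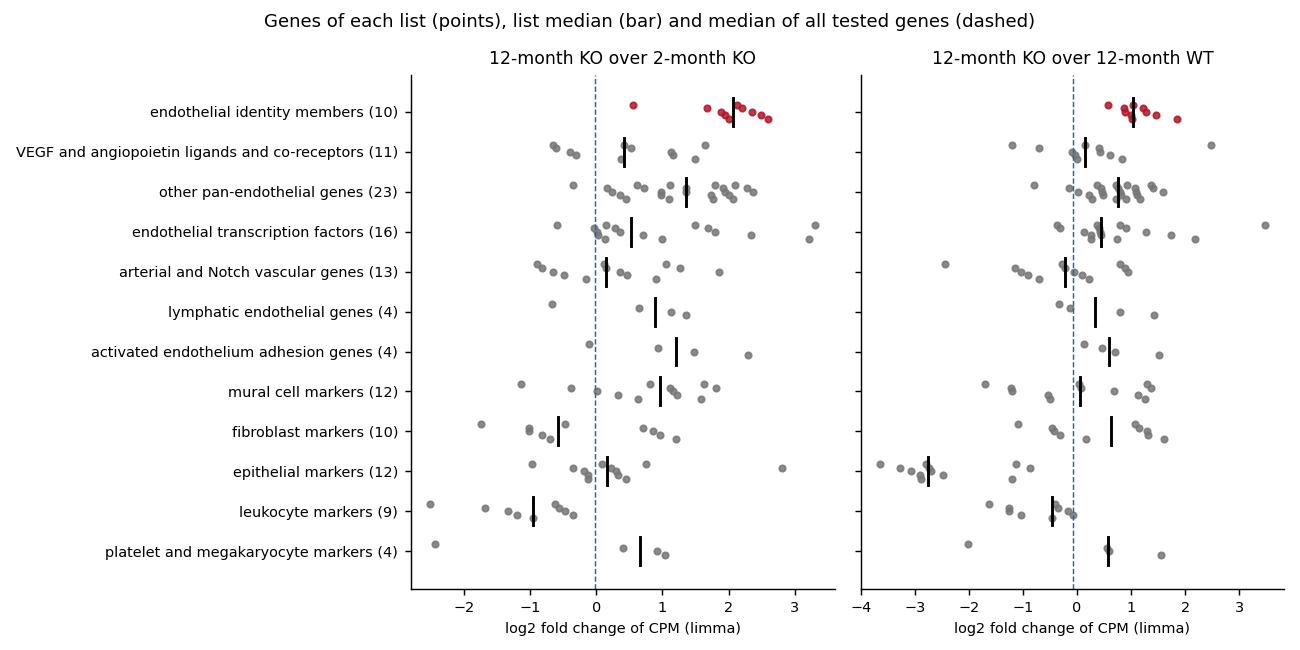
Log2 fold changes of CPM (limma) of each tested gene in 12 lists, with age in KO (left) and between genotypes at 12 months (right). Points are genes, black bars list medians and dashed lines the median of all 13961 tested genes; the endothelial identity genes have medians of 2.07 and 1.03, and the other pan-endothelial genes 1.36 and 0.75.

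Markers of other cell types also moved between the groups. Of 9 tested leukocyte markers (of 12, with Cd3e and Cd79a near 0), 8 fell with age in KO (34.2% of all genes). At 12 months 6 were lower in KO (38.9% of all genes), while Ptprc (-0.08), Emr1 (-0.35) and Laptm5 (-0.17) were not called. The 12 markers summed to 312 to 546 CPM in 12-month KO and 985 to 1090 in 2-month KO, opposite to the endothelial genes in KO. In WT they summed to 877 to 950 CPM at 12 months and 1198 to 1453 at 2 months. Lyz2 was the largest part of these sums, averaging 281 CPM in 12-month KO, 683 in 2-month KO, 645 in 12-month WT and 905 in 2-month WT. The 12 epithelial markers summed to 491 to 509 CPM in 12-month KO, 482 to 558 in 2-month KO, 3806 to 3973 in 12-month WT and 333 to 416 in 2-month WT. Of these, 12 of 12 were lower in KO at 12 months (38.9% of all genes). At 2 months 6 were higher and 1 lower in KO (1.86% and 14.2% of all genes). With age in KO 4 rose and 2 fell (32.9% and 34.2% of all genes). With age in WT 12 of 12 rose (22.3% of all genes), Krt18 by 3.62 on the log2 scale.

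The 12 mural cell markers, which mark the pericytes and smooth muscle around vessels, summed to 913 to 974 CPM in 12-month KO and 727 to 878 in 2-month KO. In WT they summed to 716 to 780 CPM at 12 months and 764 to 894 at 2 months. Most of these sums was Pdgfrb, with 708 CPM in 12-month KO, 563 in 2-month KO, 442 in 12-month WT and 568 in 2-month WT. With age in KO 9 mural markers rose and 2 fell (32.9% and 34.2% of all genes), with a median of 0.96. At 12 months 5 were higher and 5 lower in KO (31.3% and 38.9% of all genes). Abcc9, a channel subunit of pericytes, rose with age in KO by 1.81, and Cspg4, which encodes NG2, fell (-1.14). The 10 fibroblast markers summed to 13064 to 15871 CPM in 12-month KO and 12623 to 13578 in 2-month KO. In WT they summed to 9311 to 9540 CPM at 12 months and 12819 to 14868 at 2 months. Of these markers, 4 rose and 6 fell with age in KO (32.9% and 34.2% of all genes).

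Because platelets carry Pecam1, Esam and Vwf products, platelet and megakaryocyte markers were read beside them. Of 8 such markers 4 were tested. With age in KO Itgb3, Itga2b and Gp1bb rose and Pf4 fell, where 32.9% of all tested genes rose and 34.2% fell. The same 3 were higher and Pf4 lower in KO at 12 months (31.3% and 38.9% of all genes). Of those left, Ppbp, Gp9 and Gp6 had 31, 9 and 1 reads in all 12 libraries together. Pf4, whose product platelets store and some macrophages also make, had 3.27 ± 0.866 CPM in 12-month KO, 20.05 ± 5.97 in 2-month KO, 14.4 ± 0.287 in 12-month WT and 18.9 ± 2.44 in 2-month WT. It was lowest in 12-month KO, where the endothelial genes were highest, with log2 differences of -2.44 with age in KO and -2.02 by genotype at 12 months. The other 3 were highest in 12-month KO, as the members were. Itgb3, an integrin gene of platelets and many other cells, had 451 ± 15.2 CPM in 12-month KO, 218 ± 13.7 in 2-month KO, 153 ± 6.24 in 12-month WT and 234 ± 7.82 in 2-month WT, and rose with age in KO by 1.05. Itga2b, the integrin subunit gene most tied to platelets, had 2.10 ± 0.318 CPM in 12-month KO, 0.871 ± 0.161 in 2-month KO, 1.23 ± 0.292 in 12-month WT and 1.33 ± 0.0375 in 2-month WT, and rose with age in KO by 0.92. Gp1bb, a subunit gene of the platelet receptor for von Willebrand factor, had 1.22 ± 0.116 CPM in 12-month KO, 0.798 ± 0.0823 in 2-month KO, 0.685 ± 0.207 in 12-month WT and 0.880 ± 0.123 in 2-month WT. Its rise with age in KO (0.41, adjusted p = 0.0180; limma) was not called without replicate 3 of 12-month KO (0.35, adjusted p = 0.0641) or replicate 1 of 2-month KO (0.35, adjusted p = 0.0660). The part of these other cell types in the levels of the 10 genes was not tested.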

How the data were processed

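Total RNA of 12 mammosphere libraries in 4 groups of 3 was analysed, with groups and replicate numbers taken from the sample titles. Per the submitters' processing notes, reads were processed with TopHat2 2.1.0, Bowtie2 2.2.4, SAMtools 0.1.18 and HTSeq 0.6.1p1 on mm10. The sources used here give neither the strand setting nor the annotation of the counting. Per the file headers, the authors deposited a signal in CPM, normalised by TMM in edgeR, and their columns sum to 911481.5 to 1056325.8. Whole reads were recovered from the CPM of 1 read per library: 100% of values in 11 libraries and 99.99% in replicate 3 of 12-month KO lay within 0.1 of a whole number. A floor of 3 reads equals 0.029 to 0.0859 CPM, covering counting error only.

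The members and lists were chosen with earlier results of these data known. The 13961 genes averaging 0.5 CPM or more were tested as log2(CPM + 0.5) with limma-trend (limma 3.58.1, R 4.3.3), 4 group means and 8 residual degrees of freedom, and Benjamini-Hochberg adjustment; such fold changes understate those of genes with few reads. The script was tested on simulated data. Alternatives were TMM over the 12 libraries, edgeR 4.0.16 quasi-likelihood and DESeq2 1.42.0 on recovered reads, other pseudocounts and filters, fewer groups, a replicate block, and leaving out each library. Genes named from other lists were drawn from the 4 most abundant, up to 3 called genes with the largest change per comparison, and genes on which a statement turns. Outside the lists they were drawn from the 3 closest genes by correlation. Not every gene that met these rules is named, and the choice among them was made with the values known. Transcript length, GC and overlaps are from GENCODE vM21; no member shares exon sequence with another gene there. Start regions are RefSeq's, for 6 of 10 members. Gene positions are printed as deposited, and their starts may lie a base early, as that of Emcn equals the last base of its start region.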

Additional observations from a re-analysis of the deposited data

Results flagged for a closer look

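The age effect differed between genotypes for 10 of 10 endothelial genes by the interaction test in limma, where 31.4% of all tested genes were called positive. The log2 age change in KO exceeded that in WT by 2.20 for Pecam1, 2.12 for Cdh5, 1.91 for Esam and 2.20 for Cldn5. The same difference was 1.85 for Emcn, 1.76 for Vwf, 1.67 for Flt1, 1.49 for Kdr, 1.52 for Tie1 and 1.10 for Tek. The adjusted p was highest for Tie1 (2.48e-04). In KO, 3 of 3 libraries at 12 months lay above 3 of 3 at 2 months for each of the 10 genes. In WT the same held for Cdh5, Flt1, Kdr, Emcn and Esam, and the reverse for Tek.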

How the results depend on the processing

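Of 50 fold changes (10 endothelial genes in 5 comparisons), 42 kept their direction and their side of the threshold in every alternative run, 8 crossed the threshold in at least 1, and none changed sign. Members called with age in WT numbered 5, and 8 with TMM over the 12 libraries, with edgeR and with DESeq2, and 4 to 8 when 1 library was left out (8 without replicate 2 of 2-month WT). All genes called at 2 months numbered 2245, then 1458 with that TMM and 1414 with edgeR, and 1407 to 3033 with 1 library left out. Tek at 2 months was -0.15 (adjusted p = 0.256) with that TMM and ran from -0.26 to -0.13 over all settings. Endothelial transcription factors lower at 2 months numbered 7, and 4 with that TMM, edgeR and DESeq2; other pan-endothelial genes higher with age in WT numbered 5, and 9 with edgeR. For genes of other lists 50 fold changes were checked, and all but that of Gp1bb with age in KO kept their call in every alternative run. The cause of these differences was not tested. Replicate numbers mark no stated pairing, and deviations of same-numbered libraries correlated at -0.163 to 0.335. With the replicate number as a block, members called were 10 with age in KO, 6 with age in WT, 10 at 12 months, 9 at 2 months and 10 for the interaction. All genes called were then 9681, 8453, 10079, 2590 and 8517. With 3 libraries a group, Cldn5 at 102 reads in 1 library and Tie1 with its wide spread are the least precise members.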
